A study of Mus musculus with 14 samples.

Results

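Total liver was set against isolated hepatocytes of mice on the control diet: 4 liver arrays and 3 hepatocyte arrays, 7 of the 14 arrays of the series, chosen by their titles. All mice were adult male wild-type C57Bl6 animals fed for 2 weeks. The 7 arrays come from CSAA, the choline-supplemented control diet. The other 7 come from CDAA, the diet that lacks choline and carries extra cholesterol, glucose and fructose, and enter only the test of whether the tissue difference depended on diet. Hepatocytes were freed by a 2-step collagenase perfusion, and the labels name no sort or gate after it. Total liver was a piece of the caudal lobe, taken after the blood had been washed out with saline through the heart. RNA was extracted with the RNeasy Plus Kit for hepatocytes and with the RNeasy Lipid Tissue Kit for liver. The isolation procedure, the lobe and the kit each go with the tissue, so their shares in a difference between the tissues cannot be told apart. The preparations were independent, and Clariom S mouse arrays, 1 per preparation, gave log2 intensities per probe set.

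Hepatocytes make up most of the mass of the liver and secrete most plasma proteins. The spaces between their plates hold Kupffer cells, the resident macrophages, and sinusoidal endothelial cells, which take up waste molecules through scavenger receptors, while stellate cells between endothelium and hepatocytes store vitamin A and make matrix. Collagenase perfusion releases hepatocytes as single cells, and most smaller cells are lost on low-speed spins in common protocols. The procedure itself is known to switch on immediate early genes, the transcription factor genes that respond within minutes to stress.

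The deposited values of the tissues were not on 1 scale, with array medians over the tested probe sets of 4.68 to 4.76 in hepatocytes and 5.85 to 5.91 in liver. Levels below are therefore log2 values after joint quantile normalization of the 7 arrays, which compares ranks within arrays on a common scale. On it 1 unit stands for a doubling. A difference is liver minus hepatocytes, tested with limma and called at a Benjamini-Hochberg adjusted p under 0.05 over 22206 probe sets. Liver was higher for 2879 probe sets (13%) and lower for 2996 (13.5%), of which 1615 and 1516 differed by at least 1. All liver arrays lay above all hepatocyte arrays for 17.9% of probe sets and below them for 18.6%. The direction of some differences depended on the scale. Liver was the higher side in 49.0% of calls, but in 35.9% after centring on array medians, in 35.2% with the control probe sets in the normalization and in 69.0% after centring on hepatocyte genes. These scalings moved the median over all probe sets from -0.02 to -0.23, -0.15 and 0.14. Arrays correlated across probe sets at 0.977 to 0.982 among hepatocytes, 0.991 to 0.994 among livers and 0.959 to 0.97 between them. A probe set is called above background on an array where it exceeds the 95th percentile of that array's intron control probe sets, a line at 8.51 to 9.04 in hepatocytes and 9.23 to 9.56 in liver. Only 3957 probe sets lay above it on all 7 arrays and 15781 on none. Where 1 group lies under the line on all its arrays, the fold is a lower bound against the dimmest measured signal, written "at least". Where both do, levels and the adjusted p are given without a fold.

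Genes of secreted hepatocyte proteins gave few calls between the tissues. Of 23 measured genes, 0 were called higher and 1 lower in liver, with 1 and 3 at an unadjusted p under 0.05 and a median difference of -0.04 beside -0.02 over all tested probe sets. Their mean level was 18.56 ± 0.05 (SD, n = 3) in hepatocytes and 18.51 ± 0.03 (SD, n = 4) in liver. Alb, encoding serum albumin, read 19.49, 19.40 and 19.41 in hepatocytes and 19.52 on each of the 4 liver arrays, the top of the scale in liver. Ttr, the thyroxine carrier transthyretin, read 19.06, 19.18 and 19.13 against 19.11, 19.05, 19.06 and 19.03. At this end of the range the groups lay close to each other. The 1 called gene was Hpx, the heme-binding hemopexin, at 18.72, 18.46 and 18.80 against 17.90, 17.50, 17.94 and 18.23 (difference -0.77, SE 0.22, adjusted p 0.0261). That call was lost without any 1 of hepatocyte replicates 1 and 3 or liver replicates 1, 2 and 3 (adjusted p 0.0567 to 0.0598). The near-zero median of the secreted protein genes belongs to the rank scale: centring on array medians gave -2.16 with 22 of 23 genes called lower, and Alb then differed by -1.69.

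Among 16 measured hepatocyte transcription factor genes 2 were higher and 1 lower in liver. Mlxipl, encoding the carbohydrate sensor ChREBP, read 12.98, 13.21 and 12.27 in hepatocytes and 13.89, 14.09, 13.71 and 14.22 in liver, a 2.23-fold difference (adjusted p 0.00864). Ppara, the fatty acid receptor that drives oxidation genes, was 1.85-fold higher (difference 0.89, SE 0.23, adjusted p 0.0169). Nr1i2, encoding the xenobiotic receptor PXR, was lower at 10.11, 9.82, 9.92 and 10.40 against 10.87, 10.76 and 10.99 (difference -0.81, adjusted p 0.0156). Hnf4a, the master factor of the hepatocyte, read 14.02, 14.02 and 13.46 against 14.02, 13.94, 14.28 and 14.54, with overlapping groups (difference 0.36, adjusted p 0.267).

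**Figure D1:**
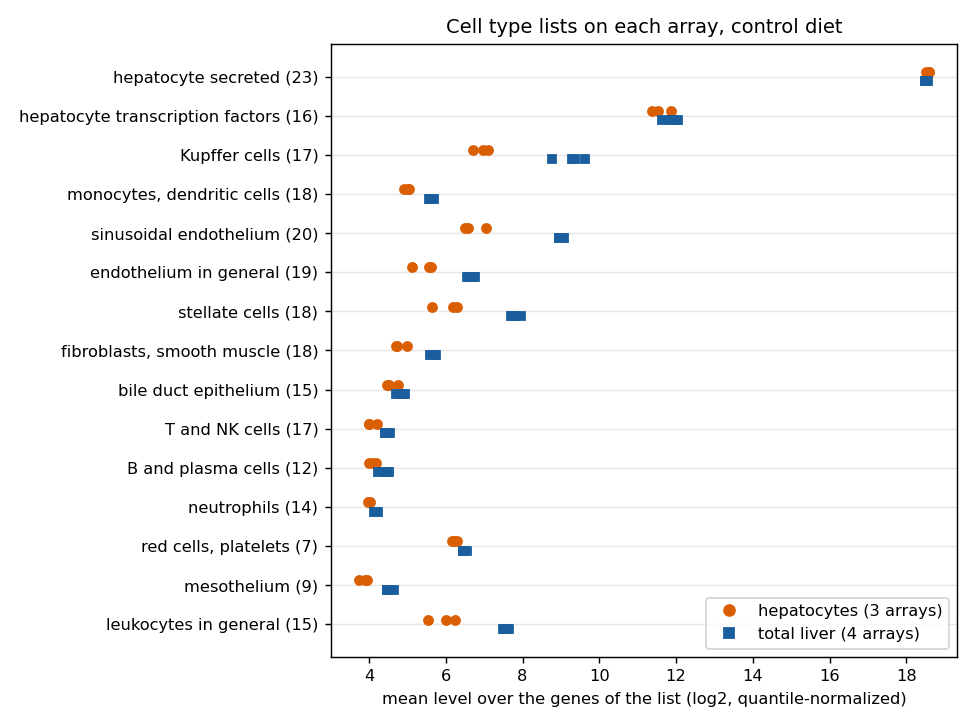
Mean log2 level over the genes of each cell type list (number of genes in brackets) on each of the 3 hepatocyte arrays (circles) and 4 liver arrays (squares), after joint quantile normalization. Kupffer cell genes averaged 6.93 in hepatocytes and 9.26 in liver and sinusoidal endothelial genes 6.71 and 9, while genes of secreted hepatocyte proteins lay at 18.56 and 18.51.

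Kupffer cell genes were higher in liver. Of 17 measured genes 15 rose and 0 fell, with a median difference of 2.49, and the same 15 had all 4 liver arrays above all 3 hepatocyte arrays. Their mean level was 6.93 ± 0.20 (SD, n = 3) in hepatocytes and 9.26 ± 0.36 (SD, n = 4) in liver. In hepatocytes 15 of the 17 were under background on every array, and in liver 8 were. In a bulk sample fewer cells of a type and less RNA per cell cannot be told apart.

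The bases before the start of transcription are shown for 3 of these genes. They were picked because they were called higher and hold a purine-rich motif, GAGGAAG on either strand. The myeloid factor PU.1 is known to bind this motif. The windows hold the 250 bases before the start in RefSeq's annotation of GRCm38.p6, on the gene's strand, with the motif or its reverse complement in capitals. Cd5l lies at chr3:87357631-87357880 on the plus strand, Fcna at chr2:25627975-25628224 and C1qc at chr4:136892915-136893164 on the minus strand.
Cd5l: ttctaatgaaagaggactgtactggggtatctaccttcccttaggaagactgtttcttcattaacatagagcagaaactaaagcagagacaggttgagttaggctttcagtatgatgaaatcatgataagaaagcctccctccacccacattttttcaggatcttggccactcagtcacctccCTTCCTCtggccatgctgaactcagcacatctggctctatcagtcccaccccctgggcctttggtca
Fcna: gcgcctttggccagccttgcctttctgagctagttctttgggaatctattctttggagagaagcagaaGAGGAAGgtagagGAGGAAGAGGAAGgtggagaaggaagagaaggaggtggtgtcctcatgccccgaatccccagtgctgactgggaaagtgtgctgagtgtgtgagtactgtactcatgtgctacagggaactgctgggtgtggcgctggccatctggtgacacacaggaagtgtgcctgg
C1qc: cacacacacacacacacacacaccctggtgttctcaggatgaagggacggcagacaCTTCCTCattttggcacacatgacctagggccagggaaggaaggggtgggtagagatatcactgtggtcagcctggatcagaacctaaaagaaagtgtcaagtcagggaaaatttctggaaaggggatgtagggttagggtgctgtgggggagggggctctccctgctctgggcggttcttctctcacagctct

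The motif began 67 bases before the start in Cd5l and 194 before it in C1qc, and Fcna held 3 copies, of which 2 overlap by 1 base. It was found in 4 of 14 windows of the Kupffer list (28.6%, 13 genes matched) and in 3486 of 32851 windows of all promoters (10.6%). The fourth Kupffer window was that of Marco, which was not called. The stellate list, of cells that are not myeloid, held it in 3 of 14 windows (21.4%). A match is a description of the letters, not a measured binding site. Spi1, which encodes PU.1, read 6.96, 8.65 and 8.27 in hepatocytes and 11.42, 10.71, 11.48 and 11.36 in liver, at least 5.82-fold higher (adjusted p 0.000411).

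Clec4f, a lectin receptor found on Kupffer cells alone in the mouse, read 6.22, 6.36 and 6.66 in hepatocytes, all under background, and 9.92, 9.58, 10.11 and 9.72 in liver, all above it. Liver was at least 2.19-fold higher (adjusted p 6.34e-05). Cd5l, a macrophage protein that binds lipids, read 7, 8.51 and 7.79 against 11.36, 10.85, 11.59 and 11.42, at least 6.08-fold higher (adjusted p 0.000193). The groups did not overlap for Clec4f or for Cd5l. Vsig4, the complement receptor CRIg, read 7.04, 8 and 6.08 against 10.79, 10.18, 11.36 and 10.99 (at least 4.37-fold, adjusted p 0.00036). Csf1r, the receptor for the macrophage growth factor, read 6.21, 5.80 and 6.06 against 10.20, 9.73, 10.66 and 10.02 (at least 2.74-fold, adjusted p 6.34e-05). Fcna, encoding the pattern-recognition lectin ficolin A, read 6.44, 7.46 and 7.03 against 9.72, 8.87, 9.79 and 9.48 and was above background on 2 of the 4 liver arrays. In all of these genes liver replicate 2 had the lowest liver value. The complement C1q genes are made by macrophages in liver: C1qa and C1qb were above background on 2 liver arrays each and C1qc on none, with adjusted p 0.0011, 0.00334 and 0.000342. Adgre1, a macrophage adhesion receptor, averaged 4.69 in hepatocytes and 7.77 in liver, under background in both (adjusted p 0.000159). Of the 2 list members not called, Slc40a1, the iron exporter ferroportin, which hepatocytes express too, read 12.51, 12.93 and 13.20 against 13.29, 12.83, 12.99 and 13.26. Marco, a scavenger receptor, read 5.85, 6.1 and 5.23 against 6.36, 5.55, 6.51 and 5.6, under background on all arrays (adjusted p 0.534). C6 is a complement component with high hepatocyte expression, at 16.93, 16.49 and 16.01 against 17.51, 17.36, 18.13 and 17.89; its difference of 1.24 turned to -0.31 after centring on array medians, unlike the genes above.

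Sinusoidal endothelial genes rose almost as a whole list. Of 20 measured genes 19 were higher in liver and 0 lower (median difference 1.88), with a mean level of 6.71 ± 0.30 (SD, n = 3) in hepatocytes and 9 ± 0.07 (SD, n = 4) in liver. The exception was Wnt2, a Wnt ligand of this endothelium, at 5.36, 5.65 and 5.63 against 5.47, 6.11, 5.98 and 5.17, all under background (adjusted p 0.727). In hepatocytes 15 of the 20 were under background on every array, but 5 were not. Stab2, the scavenger receptor stabilin 2, read 5.43, 4.90 and 4.32 in hepatocytes and 9, 8.55, 8.76 and 8.85 in liver, under background in both (adjusted p 6.34e-05). Kdr, the main receptor for VEGF, read 7.65, 8.63 and 7.05 against 11.38, 11.52, 11.15 and 11.31 (at least 6.23-fold, adjusted p 0.000187). Ptprb, a phosphatase of endothelial junctions, read 6.60, 6.69 and 4.48 against 10.53, 10.43, 10.31 and 10.43 (at least 3.3-fold, adjusted p 0.000259). The 4 liver arrays were within 0.5 of each other for each of these 3 genes, and the hepatocyte arrays spread more widely. Several endothelial genes were measurable in the hepatocyte preparations as well. Mrc1, the mannose receptor, read 9.14, 10.59 and 8.72 in hepatocytes and 12.69, 12.35, 12.78 and 12.61 in liver, 8.71-fold higher (difference 3.12, SE 0.38, adjusted p 0.000532). Clec4g, the lectin LSECtin, read 8.91, 9.90 and 10.52 against 11.57, 11.82, 11.53 and 11.75, 3.71-fold higher (adjusted p 0.00285). Fcgr2b, the inhibitory Fc receptor, read 10.26, 10.77 and 11.07 against 12.68, 12.36, 12.23 and 12.31 (adjusted p 0.00102). Lyve1, a hyaluronan receptor, was under background on all 7 arrays, at 6.14, 6.75 and 5.38 against 6.90, 7.49, 7.96 and 7.43 (adjusted p 0.015).

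The list for endothelium of any vessel divided. Of 19 measured genes 10 were higher and 0 lower, with a median difference of 0.88. Eng, the TGF beta co-receptor endoglin, read 7.38, 9.09 and 7.65 in hepatocytes and 11.79, 12.04, 11.97 and 11.85 in liver (adjusted p 0.000188), above background on 1 of the 3 hepatocyte arrays. Cdh5, VE-cadherin, read 6.86, 7.59 and 5.89 against 10.08, 10.04, 10.02 and 9.80 (at least 2.44-fold, adjusted p 0.000304). Pecam1, encoding CD31, averaged 4.92 against 7.48, under background in both (adjusted p 0.000315). Genes linked to capillaries or large vessels elsewhere stayed without a call, all under background: Cd34 differed with adjusted p 0.692, Tie1 with 0.365, Podxl with 0.279 and Sox17 with 0.456. Vwf, which marks larger veins, rose from 3.96, 3.95 and 4.00 to 5.11, 5.25, 4.84 and 5.22 (adjusted p 0.00235), also under background. Ehd3, a membrane-trafficking gene outside these lists, was among the brightest liver-only genes at 7.73, 8.12 and 8.30 against 11.79, 10.97, 10.75 and 10.78 (at least 5.17-fold, adjusted p 0.000188).

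Genes of signalling ligands and receptors were part of the difference, though neither the sending cell nor the signalling was measured. Of 19 measured genes of BMP, Notch, Wnt and related ligands and receptors 10 rose and 0 fell (median 0.83). In both tissues 15 of the 19 lay under background. Rspo3, an R-spondin that amplifies Wnt signals around the central vein, read 4.6, 4.91 and 3.79 in hepatocytes and 8.62, 8.64, 8.39 and 8.09 in liver (adjusted p 6.34e-05). Bmp2, an endothelial ligand that raises hepcidin in hepatocytes, read 5.04, 3.99 and 4.18 against 7.33, 7.03, 7.47 and 7.25 (adjusted p 0.000188). Both lay under background on every array, with no overlap between the groups. Hgf, hepatocyte growth factor from stellate and endothelial cells, read 5.08, 6.76 and 7.60 against 10.06, 9.52, 9.77 and 9.74, at least 2.11-fold higher (adjusted p 0.0012). Dll4, an endothelial Notch ligand, averaged 3.75 against 5.93 (adjusted p 0.000456). Bmp6, the other endothelial BMP of the hepcidin pathway, read 6.79, 6.88 and 6.83 against 7.34, 7.49, 7.19 and 7.40 and missed the threshold (adjusted p 0.0525). Igf1 and Cxcl12, both bright in hepatocytes at 18.03 to 18.30 and 14.60 to 14.66, differed by 0.11 and -0.10 (adjusted p 0.699 and 0.774).

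**Figure D2:**
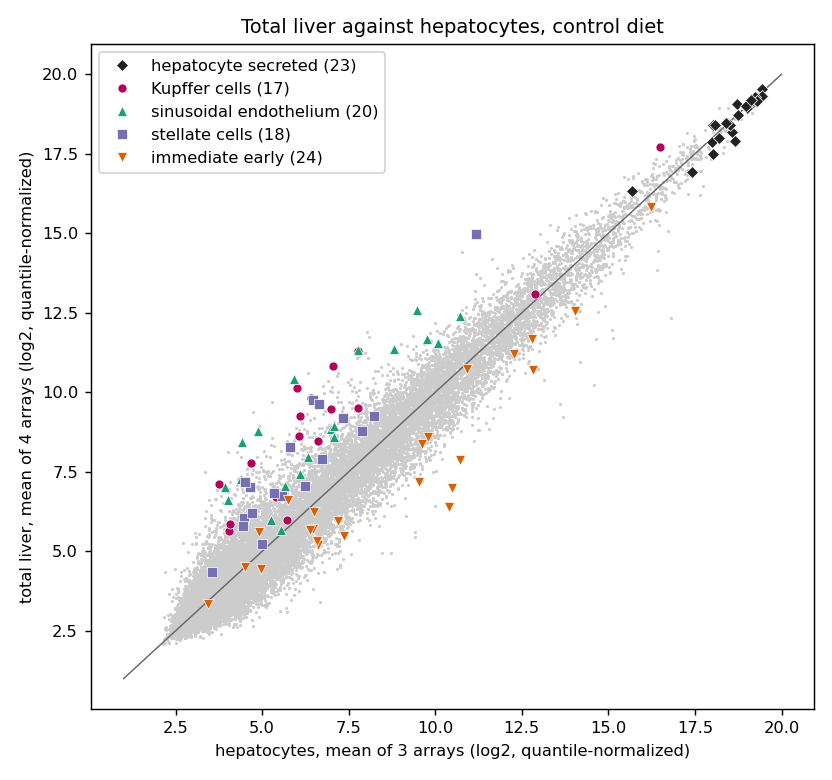
Mean log2 level in total liver (4 arrays) against hepatocytes (3 arrays) for the 22206 tested probe sets (grey) with members of 5 lists marked, after joint quantile normalization; the line marks equal levels. Most Kupffer, sinusoidal endothelial and stellate genes lie above the line, genes of secreted hepatocyte proteins close to it and several immediate early genes below it.

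Stellate cell genes rose with the other sinusoidal cells. Of 18 measured genes 16 were higher and 0 lower (median difference 1.5), with mean levels of 6.04 ± 0.35 (SD, n = 3) and 7.79 ± 0.11 (SD, n = 4). In hepatocytes 17 of the 18 were under background, and in liver 13. Dcn, the collagen-binding proteoglycan decorin, was the gene that hepatocyte preparations did carry, at 9.51, 12.19 and 11.89, against 14.98, 14.89, 15.26 and 14.83 in liver, 13.9-fold higher (difference 3.80, SE 0.53, adjusted p 0.00105). Hepatocyte replicate 1 was the lowest of the 3 by more than 2 log2 units. Lrat, the enzyme that esterifies vitamin A for storage, read 7.11, 7.26 and 7.62 against 9.34, 9.18, 9.26 and 8.97, above background on 1 liver array (at least 1.4-fold, adjusted p 0.000345). Reln, reelin, read 6.26, 7.15 and 6.73 against 7.87, 8.23, 7.91 and 7.63, under background in both (adjusted p 0.00673). Sod3, the extracellular superoxide dismutase, read 5.72, 6.4 and 7.76 against 9.59, 9.26, 10.39 and 9.34 (at least 1.92-fold, adjusted p 0.00134; 2 of 4 liver arrays above background). The groups did not overlap for any of these 4 genes. Not called were Cygb, cytoglobin (adjusted p 0.11), and Hand2 (adjusted p 0.428), both under background.

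Matrix genes that stellate and endothelial cells make were higher in liver, while most fibrillar collagens were too dim to measure. Of 24 measured matrix genes 13 rose and 1 fell (median 0.96), with 21 under background in hepatocytes and 19 in liver. Sparc, a collagen-binding matrix protein, read 6.88, 8.85 and 8.54 in hepatocytes and 11.81, 11.62, 12.20 and 11.32 in liver, at least 8.2-fold higher, the highest bound of all 36 genes that were bright in liver only (adjusted p 0.000443). Bgn, biglycan, read 7.58, 9.39 and 8.93 against 10.90, 10.58, 11.16 and 10.94 (adjusted p 0.00234). Igfbp7, a secreted binding protein of vessel walls, read 10, 11.81 and 11.71 against 13.74, 13.82, 13.72 and 13.64, 5.89-fold higher (adjusted p 0.0015). In Sparc, Bgn and Igfbp7, as in Dcn, hepatocyte replicate 1 was the lowest array. Col3a1 read 5.71, 5.80 and 5.85 against 6.79, 6.91, 7.57 and 7.03, under background in both (adjusted p 0.00285). Col1a1, the main fibrillar collagen of scars, read 5.32, 4.51 and 4.53 against 5.77, 5.50, 5.20 and 5.58, under background, with overlapping groups (adjusted p 0.0543; it passed without hepatocyte replicate 1, adjusted p 0.0117). The 1 gene called lower, Col6a1, lay under background on all arrays (adjusted p 0.0163), and no matrix gene was called lower without liver replicate 1 or 4.

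Portal fibroblast and smooth muscle genes were dim. Of 18 measured genes 12 were higher and 2 lower (median 0.83), and 17 lay under background in both groups. Mylk, myosin light chain kinase, was the 1 measurable member, at 8.73, 9.33 and 8.73 against 10.56, 10.64, 10.14 and 10.32 (difference 1.48, SE 0.23, adjusted p 0.00162). Dpt, dermatopontin, read 3.08, 4.10 and 4.25 against 6.14, 6.15, 6.63 and 6.14 (adjusted p 0.000476), and Lum, lumican, 4.91, 6.80 and 6.62 against 8.44, 8.28, 8.37 and 8.33 (adjusted p 0.00292). Acta2, smooth muscle actin, read 4.68, 3.10 and 4.54 against 5.90, 5.46, 5.72 and 4.47 (adjusted p 0.0491). Its call was lost without hepatocyte replicate 2 or 3 or liver replicate 1, 2 or 3 (adjusted p 0.0516 to 0.143).

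Genes of leukocytes in general were higher in liver, and those of myeloid cells were the measurable ones. Of 15 leukocyte genes 11 rose and 0 fell (median 1.61). Ctss, the protease cathepsin S, read 6.57, 6.74 and 7.01 in hepatocytes and 10.18, 9.84, 10.72 and 10.05 in liver (at least 2.82-fold, adjusted p 6.34e-05). Fcgr3, an activating Fc receptor, read 8.56, 8.72 and 9.20 against 11.60, 11.38, 11.05 and 11.29, with 2 of 3 hepatocyte arrays above background (difference 2.50, SE 0.22, adjusted p 0.000176). Ptprc, encoding CD45, read 6.39, 6.62 and 5.90 against 8.68, 8.70, 8.66 and 8.89, under background in both (adjusted p 0.000176). None of the 3 genes had overlapping groups. Of 18 monocyte and dendritic cell genes 7 rose and 2 fell (median 0.43). Lyz2, lysozyme, which Kupffer cells also make, read 6.75, 8.15 and 7.70 against 10.17, 10.04, 10.51 and 10.17 (at least 2.87-fold, adjusted p 0.000411). Clec9a of cross-presenting dendritic cells averaged 3.47 against 5.49, and Ccr2 of inflammatory monocytes 3.25 against 5.01, both under background (adjusted p 0.000771 and 0.00215). The 2 genes called lower, Cd209a and Cst3, were called in few of the fits that left out 1 array: 0 of the 2 without hepatocyte replicate 1 or any of the 4 liver replicates, and 1 without hepatocyte replicate 2 or 3. Of 9 MHC class II genes 6 rose and 0 fell (median 1.31). H2-Aa, the alpha chain that presents peptide, read 6.4, 8.19 and 8.54 against 9.74, 10, 10.06 and 9.19 (at least 2.07-fold, adjusted p 0.00893; 3 of 4 liver arrays above background), and H2-Ab1, its beta chain, 6.31, 7.18 and 7.79 against 8.89, 8.93, 9.12 and 8.73 (adjusted p 0.00256). Ciita, the activator of the class, was not called (adjusted p 0.196).

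Lymphocyte, neutrophil, bile duct and capsule genes lay near or under background in both tissues. Of 17 T and NK cell genes 5 rose and 0 fell. The count was 3 without hepatocyte replicate 2 or liver replicate 1, 3 or 4. Cd3e, of the T cell receptor complex, read 3.82, 3.84 and 3.58 against 3.65, 4.26, 4.54 and 3.92 (adjusted p 0.305), and Ccl5, a chemokine of T and NK cells, 3.62, 3.64 and 3.64 against 4.74, 4.89, 4.82 and 4.88 (adjusted p 0.00124). Of 12 B and plasma cell genes 4 rose, 2 without liver replicate 3 or 4, and 1 fell. Cd79a, of the B cell receptor, read 3.43, 3.28 and 3.19 against 4.08, 3.93, 4.09 and 4.16 (adjusted p 0.0116). Of 14 neutrophil genes 3 rose; S100a8, their most abundant cytosolic protein, read 2.56, 2.69 and 3.63 against 2.69, 4.13, 3.71 and 4.06 (adjusted p 0.196). All of these values were under background, so that the levels show no measured amount of these cells in either tissue. Of 15 bile duct genes 3 rose and 3 fell. The count of falls was 1 without hepatocyte replicate 1 or liver replicate 1, 3 or 4. Pkhd1, the gene of fibrocystin in primary cilia, read 5.25, 5.03 and 4.25 against 6.62, 7.08, 6.61 and 6.07 (adjusted p 0.00264). The defining keratins did not rise: Krt19 read 4.68, 3.38 and 4.03 against 2.87, 3.25, 3.20 and 3.47 (adjusted p 0.0602), and Krt7 5.23, 5.65 and 5.28 against 5.43, 5.56, 5.41 and 5.45 (adjusted p 0.794). Sox9, which periportal hepatocytes can express too, was called lower in liver, at 10.34, 8.37 and 8.67 against 7.20, 8.21, 7.88 and 7.16 (adjusted p 0.031). Its liver values were all under background, as was hepatocyte replicate 2. Of 9 mesothelial genes 5 rose and 0 fell, under background in both, led by Gpm6a at 5.40, 4.77 and 5.67 against 7.29, 6.90, 7.02 and 7.07 (adjusted p 0.000904) and Upk3b at 4.22, 4.25 and 4.75 against 6.19, 6.31, 5.82 and 5.85 (adjusted p 0.000916). These cells cover the liver surface. Of 7 red cell and platelet genes 2, Ppbp and Gp9, rose; Gp9 alone lost its call without hepatocyte replicate 1 or 3 or liver replicate 1 or 3 (adjusted p 0.0658 to 0.0904).

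**Figure D3:**
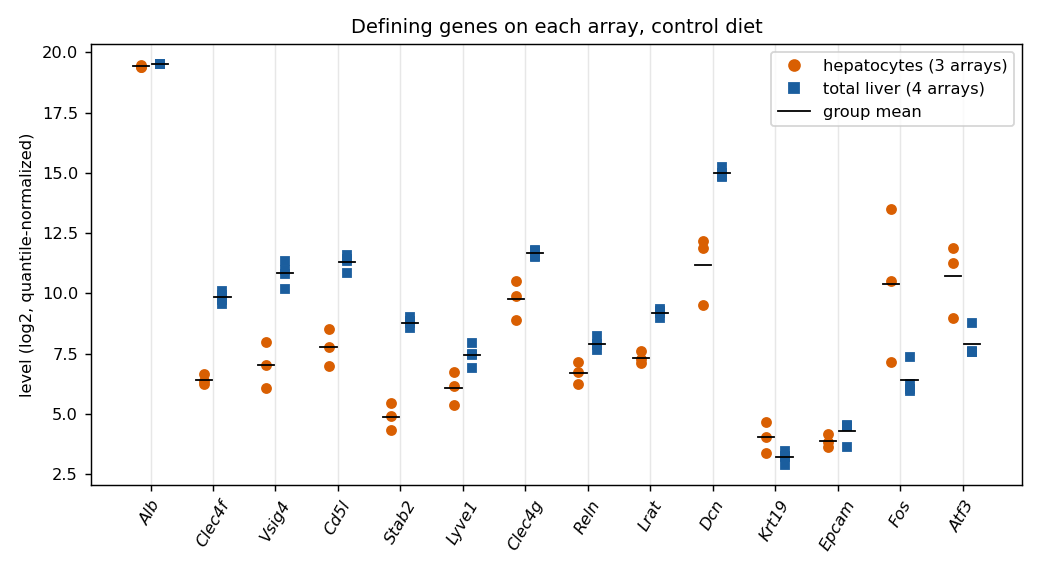
Log2 level of 14 defining genes on each hepatocyte array (circles) and liver array (squares), with group means as lines. Alb is level at about 19.4 to 19.5, the Kupffer, endothelial and stellate genes are higher on all 4 liver arrays, Krt19 and Epcam overlap between the tissues, and Fos and Atf3 spread over several log2 units in hepatocytes.

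Genes of the actin skeleton and of motile cells rose in part. Of 26 cytoskeletal genes 11 were higher and 0 lower (median 0.41), with 7 higher without liver replicate 3. Tmsb4x, thymosin beta 4, which holds actin monomers and is abundant in blood and endothelial cells, read 9.81, 11.14 and 11.35 in hepatocytes and 14.33, 14.21, 14.56 and 14.48 in liver, 12.4-fold higher (difference 3.63, SE 0.33, adjusted p 0.000188). Actn4, an actinin, read 12.97, 11.79 and 11.53 against 14.23, 13.57, 13.82 and 13.70 (adjusted p 0.00457), and Vim, vimentin of mesenchymal cells, 4.92, 6.64 and 7.08 against 8, 8.43, 8.35 and 8.30, under background (adjusted p 0.00663). The general housekeeping gene Actb overlapped at 17.37, 16.65 and 16.34 against 17.06, 16.77, 17.08 and 17.01 (adjusted p 0.603). Its small positive difference turned to -1.28 after centring on array medians and to -0.02 without hepatocyte replicate 3. Krt18, a hepatocyte keratin, differed by -0.68 (adjusted p 0.0791).

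Part of the immediate early genes ran the other way and were higher in the isolated hepatocytes. Of 24 measured genes 0 were higher and 9 lower in liver (median -1.17). Called lower were thus 37.5%, beside 13.5% of all probe sets. All liver arrays lay below all hepatocyte arrays for 6 of the 24, and for 18.6% of all probe sets. The list averaged 9.63, 8.04 and 8.61 on the 3 hepatocyte arrays and 7.59 ± 0.17 (SD, n = 4) in liver, so every hepatocyte array lay above the liver mean with a wide spread of their own. The number called lower was 5 without hepatocyte replicate 1 and 4 without liver replicate 1 or 3.

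The upstream bases of 2 of these genes are shown because they carry the elements through which such genes are known to respond. The first element is the CArG box of serum response factor, and the second is TGACGTCA, the site of CREB and ATF factors. Both were searched on both strands and are in capitals, in the same 250 bases before the start on GRCm38.p6. Zfp36 lies at chr7:28379229-28379478 and Btg2 at chr1:134079156-134079405, both on the minus strand.
Zfp36: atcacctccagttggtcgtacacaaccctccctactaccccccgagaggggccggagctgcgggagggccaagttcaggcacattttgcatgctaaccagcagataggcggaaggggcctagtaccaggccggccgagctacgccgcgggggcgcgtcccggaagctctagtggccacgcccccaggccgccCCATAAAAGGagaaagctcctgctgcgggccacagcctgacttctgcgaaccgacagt
Btg2: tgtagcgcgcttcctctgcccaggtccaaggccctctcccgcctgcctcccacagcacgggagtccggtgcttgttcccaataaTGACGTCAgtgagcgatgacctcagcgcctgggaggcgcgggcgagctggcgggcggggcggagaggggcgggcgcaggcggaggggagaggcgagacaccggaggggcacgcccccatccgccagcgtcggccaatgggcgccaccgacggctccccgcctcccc

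A CArG box was found in windows of 3 of 18 matched genes of the immediate early list: Zfp36, Egr2 and Dusp5, of which Dusp5 was not called. It was in 1.47% of all windows. By windows the count was 6 of 22 (27.3%), but 4 of the 6 are alternative starts of Egr2. TGACGTCA was found in 2 of the 22 (9.09%), those of Btg2 and of Dusp1, which was not called, and in 1.55% of all windows. These are letters in a window and not measured binding.

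Zfp36, the mRNA decay factor tristetraprolin, read 14.82, 12.96 and 14.30 in hepatocytes and 12.26, 13.30, 12.15 and 12.42 in liver (difference -1.49, adjusted p 0.0257), and the groups overlapped through hepatocyte replicate 2 and liver replicate 2. Btg2, an antiproliferative early gene, read 10.55, 7.65 and 10.39 against 7.05, 8.75, 6.36 and 6.54 (adjusted p 0.0364). Atf3, a stress-induced repressor, read 11.87, 8.99 and 11.26 against 7.57, 8.79, 7.55 and 7.62, at least 2.49-fold lower in liver (adjusted p 0.00696), with 2 of 3 hepatocyte arrays above background. In each, hepatocyte replicate 2 was the lowest of the 3 and liver replicate 2 the highest of the 4. Ier2 followed the same order at 12.05, 8.36 and 11.03 against 6.79, 8.14, 6.63 and 6.42 (at least 2.13-fold lower, adjusted p 0.00727; 2 of 3 hepatocyte arrays above background). Fos, a partner of Jun in the AP-1 factor, read 13.49, 7.17 and 10.52 against 5.93, 6.02, 6.25 and 7.38 (at least 2.01-fold lower, adjusted p 0.0237; 2 of 3 above background). The Fos call was lost without hepatocyte replicate 3 or liver replicate 1, 2 or 3 (adjusted p 0.0567 to 0.0631). Fosl2 and Egr3 were lower on all liver arrays but under background in both groups (adjusted p 0.000443 and 0.00231). Egr1 read 14.61, 11.28 and 12.58 against 9.40, 12.84, 9.50 and 11.03 and missed the threshold (adjusted p 0.0989). It passed without hepatocyte replicate 2 or liver replicate 2 (adjusted p 0.0446 and 0.0294). Jun read 14, 11.32 and 13.07 against 11.76, 12.08, 11.60 and 11.20 (adjusted p 0.121, or 0.00467 without hepatocyte replicate 2). Myc spread widely within hepatocytes, at 9.07, 13.07 and 7.21, against 10.73, 6.35, 10.68 and 6.57 (adjusted p 0.563; its sign turned to 0.42 without hepatocyte replicate 2). Dusp1 and Cyr61, bright in both tissues, differed by -0.41 and -0.17 (adjusted p 0.401 and 0.875).

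Other stress genes moved in both directions. Of 22 NF-kB and chemokine genes 8 rose and 2 fell, and 19 were under background in both. The rises were 4 without hepatocyte replicate 2 or liver replicate 3 or 4 and 5 without liver replicate 1. Vcam1, an endothelial and Kupffer adhesion molecule, read 4.45, 3.94 and 4.42 against 6.81, 7.12, 7.34 and 7.08 (adjusted p 9.59e-05), and Il1a, interleukin 1 alpha, 4.80, 3.03 and 5.03 against 7.15, 7.19, 7.54 and 7.18 (adjusted p 0.00103). Ccl4 was lower, at 6.63, 6.57 and 6.58 against 5.75, 5.69, 5.34 and 5.36 (adjusted p 0.00354). All 3 were under background. Cxcl1 did not pass with all arrays (adjusted p 0.102) and was lower without hepatocyte replicate 2 (adjusted p 0.0028). Of 14 heat shock genes 2 rose and 1 fell, with 4 rises without liver replicate 2 and 1 without any other array except hepatocyte replicate 1. Hspd1, the mitochondrial chaperonin, read 14.55, 13.92 and 13.68 against 15.49, 15.53, 15.69 and 15.58, 2.87-fold higher in liver (adjusted p 0.00157). Hspa1a, inducible Hsp70, was higher in hepatocytes at 8.86, 7.54 and 8.03 against 6.36, 5.97, 6.64 and 7.22 (adjusted p 0.00915), above background on 1 hepatocyte array. Acute phase genes, which hepatocytes switch on under interleukin 6, had 3 rises and 1 fall among 20. Lcn2, lipocalin 2, read 6.1, 6.59 and 7.20 against 8.68, 7.83, 10.34 and 11.39, above background on liver replicates 3 and 4 only (at least 1.81-fold, adjusted p 0.0129). Saa1 read 8.11, 8.88 and 9.70 against 9.26, 10.03, 11.07 and 12.28 (adjusted p 0.06, or 0.0264 without liver replicate 1). Liver replicate 4 was the highest array for both. Without hepatocyte replicate 2 or liver replicate 4 only 1 of the 3 rises was called. Of 18 interferon genes 2 rose and 2 fell, the clearest being Oasl2 at 4.94, 4.92 and 4.77 against 6.94, 6.84, 7.24 and 7.13 (adjusted p 0.000176), under background. Without hepatocyte replicate 2 there were 6 falls, without hepatocyte replicate 3 there were 4 rises, and without any 1 liver array 1 fall. Of 13 p53 target genes 0 were called by limma (2 had an unadjusted p under 0.05); Ccng1 passed without hepatocyte replicate 3 (adjusted p 0.0364). The other stress and cell state lists gave few calls, whose counts changed as single arrays were left out: 1 rise and 2 falls among 18 oxidative stress genes, 1 and 1 among 19 genes of the unfolded protein response, 1 and 1 among 17 lysosomal genes, 2 and 2 among 21 genes of replication and mitosis, 3 and 2 among 19 male-biased genes and 1 and 0 among 16 clock genes.

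How much of hepatocyte metabolism differed depended on the scale. After quantile normalization falls were 19% of amino acid and urea genes, 15% of bile acid genes and 27.3% of periportal genes. Over all probe sets the share called lower was 13.5%. After centring on array medians 17 of 21 amino acid and urea genes, 11 of 20 bile acid genes and 8 of 11 periportal genes were called lower, against the 4, 3 and 3 given here. Bile acid genes had 0 rises and 3 falls among 20 (the falls were 1 without hepatocyte replicate 1 or liver replicate 3). Slc22a7, the organic anion transporter OAT2, read 13.05, 12.49 and 12.62 in hepatocytes and 10.74, 11.09, 11.47 and 10.66 in liver, 3.33-fold lower (difference -1.73, SE 0.25, adjusted p 0.00122). Cyp8b1, which sets the share of cholic acid, read 13.88, 13.72 and 13.51 against 12.20, 13.24, 12.76 and 12.89 (adjusted p 0.0223, but 0.0517 to 0.0632 without hepatocyte replicate 1 or liver replicate 1 or 3). Cyp7a1, which opens the classical route to bile acids, overlapped at 12.39, 14.26 and 14.98 against 13.16, 12.71, 14.72 and 15.96 (difference 0.26, SE 0.78, adjusted p 0.834). Its sign turned to -0.47 without hepatocyte replicate 1 and to -0.36 without liver replicate 4, and to -0.33 after centring on array medians. The transporters that carry bile acids in and out, Slc10a1 and Abcb11, were not called (adjusted p 0.494 and 0.365). Amino acid and urea genes had 1 rise and 4 falls among 21 (2 falls without hepatocyte replicate 1 or liver replicate 3 or 4). Gnmt, the methyltransferase that removes excess methyl groups, read 17.50, 17.77 and 17.94 against 16.41, 16.83, 16.61 and 16.15, 2.36-fold lower in liver (adjusted p 0.00336). Uroc1 and Hal, consecutive enzymes of histidine breakdown, differed by -1.10 and -1.21 (adjusted p 0.00924 and 0.0211). The Hal call was lost without hepatocyte replicate 1 or liver replicate 3 or 4 (adjusted p 0.058 to 0.0634). Cps1, the entry of the urea cycle, was called higher, at 16.97, 16.81 and 16.49 against 17.50, 17.61, 17.30 and 17.36 (difference 0.68, adjusted p 0.0275), a call lost without hepatocyte replicate 3 or liver replicate 1, 2 or 4.

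Enzymes are zoned along the sinusoid. After quantile normalization the periportal and pericentral lists had medians of opposite sign, but the pericentral sign did not hold under every scaling and fit. Periportal genes had 0 rises and 3 falls among 11, with a median of -0.63. The falls were 1 without hepatocyte replicate 1 or liver replicate 3 or 4, and 5 without hepatocyte replicate 2. Cyp2f2, a periportal P450, read 18.66, 17.93 and 18.41 against 17.68, 17.75, 17.85 and 17.53 and missed the threshold with groups apart (adjusted p 0.0544). Pericentral genes had 2 rises and 1 fall among 13 (median 0.48, or -0.07 at the lowest over the other scalings and fits), and 6 rises without hepatocyte replicate 2. Called higher were 15.4% of the pericentral genes and called lower 7.69%, beside 13% and 13.5% of all probe sets. Oat, the pericentral ornithine aminotransferase, read 13.07, 14.06 and 12.83 against 15.26, 15.54, 15.32 and 14.96, 3.87-fold higher in liver (difference 1.95, SE 0.29, adjusted p 0.0015). Cyp2e1 read 17.93, 18.66 and 18.72 against 19.08, 19.03, 18.69 and 18.93 (difference 0.50, adjusted p 0.14), and -1.66 after centring on array medians. Axin2 and Notum, 2 Wnt target genes that brake the pathway, went opposite ways under background: Axin2 read 4.97, 4.90 and 5.22 against 6.36, 6.84, 6.21 and 6.70 (adjusted p 0.00124), and Notum 8.44, 8.96 and 8.52 against 7.30, 7.55, 7.49 and 7.25 (adjusted p 0.00229). Glul, the defining pericentral enzyme, is not analysed here.

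Lipid and drug metabolism lists gave few calls after quantile normalization. Of 20 lipogenic genes 1 rose and 1 fell, of 19 cholesterol synthesis genes 2 and 3, of 18 fatty acid oxidation genes 2 and 2, of 24 phase I enzymes 3 and 0, of 19 conjugation enzymes 2 and 2 and of 20 glucose genes 2 and 1. Leaving out single arrays moved these counts too, for example to 0 rises in fatty acid oxidation without hepatocyte replicate 2 or liver replicate 1 or 4, to 4 rises in cholesterol synthesis without liver replicate 2 to 0 without liver replicate 4, and to 1 phase I rise without liver replicate 1. After centring on array medians the falls were 14 for phase I, 12 for conjugation, 9 for glucose, 8 for fatty acid oxidation and 6 for lipogenesis. Mvd, a mevalonate pathway enzyme, read 9.73, 9.83 and 8.89 against 8.05, 8, 8.05 and 7.98 (at least 1.07-fold lower, adjusted p 0.00241), while Hmgcs1, at the head of that pathway, read 16.16, 15.89 and 15.08 against 16.77, 16.42, 16.94 and 17.09 (difference 1.09, adjusted p 0.0168, or 0.0506 without liver replicate 4). The Hmgcs1 difference was -0.18 after centring on array medians. Acads, which opens the oxidation of short-chain fatty acids, read 11.77, 11.47 and 12.30 against 10.76, 10.74, 10.78 and 10.44 (difference -1.16, adjusted p 0.00552). Gstm6 and Gstm3, glutathione transferases, were 2.6-fold and 2.08-fold higher (adjusted p 0.00173 and 0.0106). Cyp3a11, the main drug-metabolising P450, differed by 0.09 (adjusted p 0.817), and by -1.56 after centring on array medians. Pkm and Hk1, the glycolytic isozymes of cells other than hepatocytes, rose within the range under background: Pkm read 6.51, 6.21 and 6.57 against 7.58, 7.43, 7.59 and 7.30 (adjusted p 0.00367) and Hk1 5.84, 3.55 and 3.49 against 6.53, 6.63, 6.68 and 6 (adjusted p 0.0105).

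Genes of the respiratory chain and the ribosome were lower in liver. Of 19 oxidative phosphorylation genes 0 rose and 8 fell (median -0.60), and all 19 were above background on at least 1 hepatocyte array. Cyc1, cytochrome c1 of complex III, read 11.34, 11.41 and 12.33 in hepatocytes and 9.20, 9.78, 9.41 and 9.47 in liver, where 2 of 4 arrays were above background (difference -2.23, SE 0.27, adjusted p 0.00054). Cox4i1 of cytochrome c oxidase read 13.74, 14.05 and 14.45 against 11.94, 12.56, 12.06 and 12.07, 3.79-fold lower (adjusted p 0.000581). Ndufb8 of complex I read 9.60, 10.20 and 10.81 against 7.83, 8.33, 7.87 and 7.58 (at least 1.76-fold lower, adjusted p 0.000681). Other subunits of the same complexes lay level: Ndufa4 differed by 0.01, Atp5a1 by -0.01 and Sdha by 0.00 (adjusted p 0.972, 0.981 and 1). Of 14 ribosomal genes in the list 1 rose and 9 fell (median -0.76). The falls were 4 without hepatocyte replicate 3 or liver replicate 1 or 4 and 5 without liver replicate 3. Rps14 read 12.75, 13.40 and 13.50 against 11.80, 12.32, 11.89 and 12.01, 2.31-fold lower (adjusted p 0.00524), and Rpl4, the 1 rise, 16.17, 15.83 and 15.90 against 16.47, 16.63, 16.74 and 16.60 (difference 0.64, adjusted p 0.0286). The Rpl4 call was lost without any 1 array other than hepatocyte replicate 1. The falls ranged from 5 to 15 for oxidative phosphorylation and from 2 to 12 for the ribosome over all alternatives. Both lists kept a negative median under every scaling and every left-out array tried, from -1.24 to -0.39 for oxidative phosphorylation and from -1.36 to -0.54 for the ribosome.

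Whole gene families, taken by symbol pattern after the list values were seen and described without a test, showed which genes this touched. Of 73 mitochondrial ribosomal proteins 2 rose and 38 fell (median -0.84), of 60 cytosolic ribosomal proteins 1 and 28 (-0.61), of 46 complex I genes 0 and 19 (-0.64) and of 35 ATP synthase and cytochrome c oxidase genes 0 and 15 (-0.77). The proteasome had 6 and 7 among 38 (-0.19, or 0.09 without hepatocyte replicate 3). Single arrays moved these counts. Without liver replicate 1 the mitochondrial falls were 24 and the cytosolic ones 15, and without hepatocyte replicate 3 the mitochondrial median was -0.53 and the cytosolic falls 16. The cytosolic falls were also 16 without liver replicate 3, 10 in the fit on all 14 arrays and 47 after centring on array medians. The falls of ATP synthase and cytochrome c oxidase were 9 without liver replicate 1 or 4, and 5 to 31 over the scalings. Opposite to these, 5 of 10 SR splicing factors rose and 0 fell (0.62), and of 330 Zfp zinc finger genes 71 rose and 21 fell (0.26). The Zfp rises were 42 to 44 without liver replicate 1, 3 or 4. Called higher were 21.5% of the Zfp genes and called lower 6.36%, beside 13% and 13.5% of all probe sets. In both tissues 264 of the 330 lay under background. Without probe sets under background on all arrays, 66 Zfp genes were left, of which 9 rose and 5 fell. Of all 6425 probe sets left by that filter, 917 rose and 1115 fell, so among measurable genes the Zfp rises were not set apart. Other splicing genes, the spliceosomal Sm and snRNP proteins, had 1 rise and 7 falls among 25 (-0.37), and collagens 6 and 6 among 42 (-0.05, with either sign over the scalings). Srsf5, an SR protein, read 12.15, 11.52 and 11.25 in hepatocytes and 14.09, 14.78, 14.07 and 13.84 in liver, 5.87-fold higher (difference 2.55, SE 0.28, adjusted p 0.000384). Genomic span, the distance from start to end of the gene in the RefSeq gene table, differed along with the direction of change. Among genes whose mean level was above the mean background, the median span was 44.5 kb for the 649 called higher in liver, 24.6 kb for the 3218 not called and 10.3 kb for the 616 called lower. In 5 equal groups by span, from the shortest to the longest, the median difference went from -0.41 over -0.11, 0.00 and 0.20 to 0.43, and the share called higher from 5.02% to 27.6%. Without hepatocyte replicate 3 the medians ran only from -0.26 to 0.27, and their order held in the 13 alternatives that moved them. Intron control probe sets ranked higher in liver as well, with a median rank of 50.8% to 52.6% of the tested probe sets against 40.3% to 40.8% in hepatocytes. The RNA kits differed between the tissues. The part of either in the family differences was not tested.

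**Figure D4:**
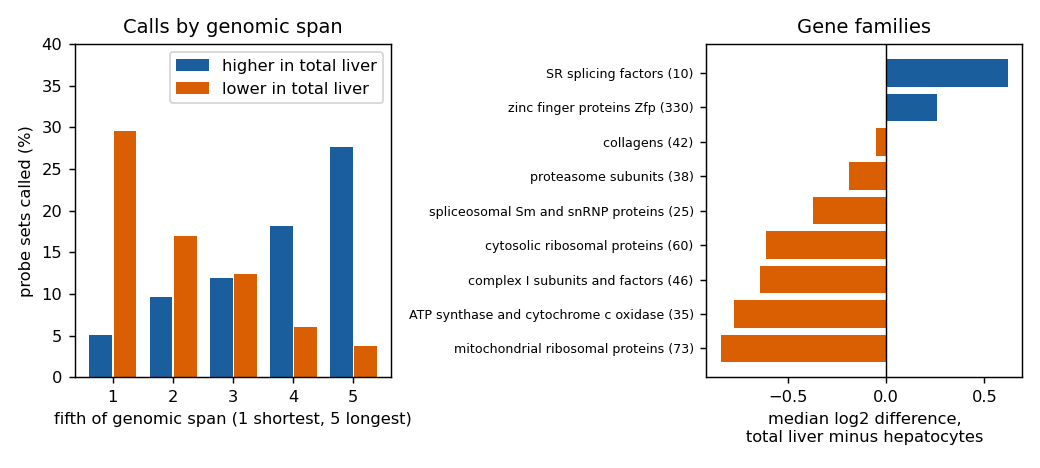
Left, percent of probe sets called higher (blue) or lower (orange) in liver in 5 equal groups by genomic span, among genes above the mean background level; the share called higher rises from 5.02% to 27.6%. Right, median log2 difference of each gene family (number of genes in brackets); the mitochondrial ribosomal proteins are lowest at -0.84 and the SR splicing factors highest at 0.62.

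The genes with the largest measured changes fell into the groups above with a few additions. Above background on all 7 arrays, Dcn, Tmsb4x, Mrc1, Igfbp7 and Srsf5 led the rises. They were followed by Akap9, a large scaffold of centrosome and Golgi, at 8.99, 9.10 and 8.91 against 11.52, 11.39, 11.43 and 11.75 (5.74-fold, adjusted p 7.58e-05), and by Ppid, a cyclophilin, at 10.10, 10.12 and 9.77 against 12.66, 11.49, 12.40 and 12.22 (4.58-fold, adjusted p 0.000626). The pseudogene Cyp2d37-ps was 4.86-fold higher (adjusted p 0.000267), a value that is uncertain because the expressed Cyp2d genes are close to it in sequence. Apoa4, an apolipoprotein of lipid-laden liver and gut, led the falls at 16.40, 16.62 and 16.13 against 13.28, 13.97, 14.71 and 13.37, 5.88-fold lower (difference -2.56, SE 0.33, adjusted p 0.000752). C2, the complement component, read 12.89, 13 and 13.03 against 10.59, 10.60, 10.77 and 10.93 (4.76-fold lower, adjusted p 0.000125), and Angptl8, a feeding-induced inhibitor of lipoprotein lipase, 14.48, 14.88 and 14.71 against 11.57, 13.53, 12.16 and 12.87 (4.47-fold lower, adjusted p 0.00372). All liver arrays of these 3 genes lay below all hepatocyte arrays. Bright in hepatocytes only were 222 named genes, and bright in liver only 36. The background line was higher in liver (9.23 to 9.56) than in hepatocytes (8.51 to 9.04). A gene at the same level in both could thus count as dim in liver only, so the 2 counts do not compare the tissues evenly. In hepatocytes the brightest of the 222 was Vnn3, a pantetheinase, at 11.18, 11.06 and 11.57 against 9.05, 8.80, 8.74 and 8.64 (at least 3.68-fold lower in liver, adjusted p 0.000143). It was followed by genes of general cell function such as Pop5 of RNase P, Psmg1 of proteasome assembly and Mrpl52 of the mitochondrial ribosome, at least 3.61-fold, 3.55-fold and 3.18-fold lower (adjusted p 0.000967, 0.000296 and 0.00151). In liver they were Sparc, Kdr, Cd5l, Spi1, Sdc3, Ehd3, Vsig4 and Smg1. Smg1, a kinase of mRNA surveillance, is no cell type marker and was at least 4.25-fold higher (adjusted p 0.000193).

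The tissue difference depended on diet for many genes of Kupffer cells, leukocytes, stellate cells and endothelium. It did so for a smaller part of the fibroblast list and for only 1 gene in each lymphocyte list. The dependence was tested as the difference on CSAA minus that on CDAA, over all 14 arrays normalized together, and 667 probe sets (3.00%) passed. The signed difference was higher on CSAA for 594 and lower for 73. Without CDAA hepatocyte replicate 1 the count was 2541, and it was 496 to 719 without any other array. Kupffer genes had a median difference of 2.44 on CSAA and -1.92 on CDAA, and 13 of 17 passed. On CDAA the list averaged 11.24, 12.56 and 12.33 in hepatocytes and 10.19 to 10.70 in liver, against 6.77 to 7.17 and 8.85 to 9.71 on CSAA. The hepatocyte preparations of CDAA mice lay above the livers of their diet in this list, and those of CSAA mice below. Leukocyte genes went from 1.60 to -1.79 (13 of 15 passed), MHC class II from 1.33 to -2.02 (6 of 9), stellate genes from 1.61 to -1.35 (14 of 18) and sinusoidal genes from 1.84 to -0.83 (15 of 20). Mrc1, above background on all 7 CSAA arrays, differed by 3.12 on CSAA and -0.40 on CDAA (difference between diets 3.46, SE 0.46, adjusted p 0.000369). Dcn differed by 3.80 and -0.96 (4.69, SE 0.73, adjusted p 0.00142). Neither CDAA difference was called (adjusted p 0.372 and 0.171). For both genes the CSAA difference comes from the fit on 7 arrays and the other values from that on 14. They therefore do not add up exactly. Genes of endothelium of any vessel had 10 of 19 that passed, NF-kB and chemokine genes 10 of 22 and matrix genes 7 of 24. Portal fibroblast and muscle genes had 4 of 18 that passed, beside 3.00% of all probe sets. T and NK cell genes had 1 of 17 and B and plasma cell genes 1 of 12. Neutrophil, mesothelial and bile duct genes had 0 in limma (1 each at an unadjusted p under 0.05). Oxidative phosphorylation genes had medians of -0.59 and -0.49 and ribosomal genes of -0.75 and -1.16 on CSAA and CDAA. Of the 2879 probe sets higher in liver on CSAA, 1615 were called higher on CDAA too and 285 were called lower. Of the 2996 lower on CSAA, 1646 were called lower on CDAA and 7 higher.

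**Figure D5:**
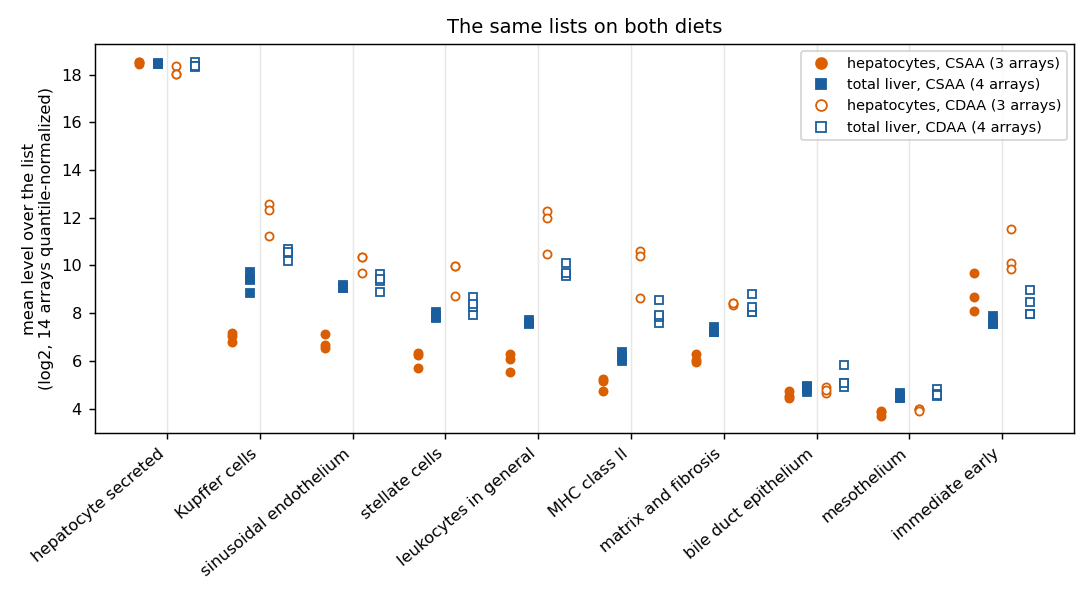
Mean log2 level of 10 gene lists on each array of the 4 groups (circles hepatocytes, squares liver; filled CSAA, open CDAA), all 14 arrays normalized together. Kupffer genes lie at 6.77 to 7.17 in CSAA hepatocytes and 11.24 to 12.56 in CDAA hepatocytes, on either side of the livers, while genes of secreted hepatocyte proteins lie between 18.04 and 18.54 on all arrays.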

How the data were processed

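Clariom S mouse arrays gave 28846 probe sets in 14 samples, of which 7 are described here. The deposited values are log2 intensities after RMA, per the submitters' processing notes, with a version not given in the sources used here. Control probe sets (6640) were left out of the tests, and symbols came from GEO's platform annotation, updated through the RefSeq gene table. The brightest probe set stood for a gene with several.

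The 7 arrays were quantile normalized together and fitted with limma 3.58.1 in R 4.3.3 (lmFit and eBayes, 2 groups, no block) with Benjamini-Hochberg adjustment. The dependence on diet was the interaction contrast of a 4-group fit over 14 arrays. The fit was tested on simulated data. Only 7 arrays, the number of preparations, limit the precision.

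Of 834 list entries 755 were measured. The members and lists were chosen with earlier results of these data known, and the gene families and the groups by genomic span after seeing the data. Genes were named by rule: the 8 largest differences per direction above background, the 8 brightest per direction seen in 1 tissue only, the members of each list with the lowest p (3 at most), and a set of well-known cell type and stress genes. Other list members, such as those not called, were named after their values were seen. Alternatives covered scaling, moderation, weights, filters, background percentile, replicate block and leaving out each array.

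Replicate numbers are shared between the tissues, but the deviations of same-numbered samples correlated at 0.0785, -0.0658 and 0.00771, so the numbers were not taken as pairs.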

Additional observations from a re-analysis of the deposited data

Results flagged for a closer look

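For 10 of 182 named genes 1 of the 4 liver arrays stood apart from the others by Dixon's criterion, which chance meets in about 1 in 20 groups. The levels of those arrays were Spi1 in replicate 2 at 10.71, Dpt in replicate 3 at 6.63, Col14a1 in replicate 4 at 6.96, Atf3 in replicate 2 at 8.79, Il1a in replicate 3 at 7.54, Gstp1 in replicate 1 at 16.63, Ccng1 in replicate 1 at 12.98, Tnfrsf10b in replicate 2 at 3.92, Acads in replicate 4 at 10.44 and Epcam in replicate 1 at 3.62. Liver replicate 2 was the array apart for Spi1, Atf3 and Tnfrsf10b, downward in Spi1 and upward in Atf3.

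The difference between liver and hepatocytes depended on diet, by the interaction test in limma, for 58 of 182 named genes. The size given is the log2 difference on CSAA minus that on CDAA, in log2 units. It was at least 4 for Clec4f 6.58, Il1a 5.69, H2-DMb1 5.53, Cd5l 5.39, Vsig4 5.37, Vcam1 5.21, Rspo3 5.12, Lyz2 5.1, Clec4g 4.97, Sparc 4.93, Eng 4.92, Fcgr3 4.86, Ctss 4.81, Spi1 4.7, Dcn 4.69, Hspa1a 4.67, Csf1r 4.36, Ehd3 4.33, H2-Ab1 4.3, Tmsb4x 4.27, Adgre1 4.23 and Sdc3 4.21. These are mostly genes of Kupffer cells, other leukocytes and sinusoidal endothelium. It lay between 3 and 4 for Kdr 3.76, Cdh5 3.75, Bmp2 3.72, Vipr1 3.65, Igfbp7 3.61, Mrc1 3.46, Lyve1 3.44, H2-Eb1 3.37, Tek 3.31, Pecam1 3.24, Lrat 3.19, Lamb1 3.09, Acta2 3.09 and Flna 3.03. It was under 3 for Pkm 2.94, Dll4 2.9, Lgmn 2.89, Stab2 2.87, Oasl2 2.64, Ptprc 2.56, Reln 2.51, Ccl4 2.49, Col3a1 2.48, Anxa2 2.37, Pdgfrb 2.26, Hmox1 2.26, Ifit2 2.13, Mcm5 2.13, Col14a1 1.92, Ccl5 1.69 and Gas6 1.59. For 48 of the 58 genes the fitted differences on the diets had opposite signs, and 29 of them were called on both diets. Many of these genes lay under background in 1 or both groups, so the sizes are fitted values and not folds.

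The size was negative for Akap9 -1.06, Mx1 -1.45, Mlxipl -1.69, Vnn3 -1.76 and Apoa4 -2.71, which compares signed differences. In size the difference was larger on CSAA for Apoa4 (-2.56 against 0.21), Vnn3 (-2.46 against -0.66) and Mx1 (-1.40 against -0.07). These are genes of hepatocyte metabolism, of the interferon response and a scaffold protein. Among the positive values, Hspa1a (-1.60 on CSAA against -6.25 on CDAA) and Ccl4 (-1.06 against -3.60) were lower in liver on both diets, and more so on CDAA.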

How the results depend on the processing

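Of 149 called named genes 89 kept their call in each of the 17 alternatives in which they were tested. The filters on background and on the dimmest 30% removed some of these genes, so not all 89 were tested in all 17. The medians of the Kupffer (2.22 to 3.14), sinusoidal (1.79 to 2.36), stellate (1.25 to 3.02), leukocyte (1.16 to 2.60) and immediate early lists (-1.36 to -0.66) kept their sign in all alternatives on the log2 scale, over the members left. Against 2879 higher and 2996 lower calls, centring on array medians gave 3735 and 6659, centring on hepatocyte genes 4038 and 1812, and leaving out probe sets under background on all arrays 917 and 1115, with fewer tested. Leaving out 1 array gave 1985 to 2901 higher and 1916 to 2898 lower calls, with the fewest in both directions without liver replicate 1. For the dependence on diet it gave 496 to 2541 against 667, the highest without CDAA hepatocyte replicate 1. The cause was not tested.

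With the replicate block there were 1701 higher and 1659 lower calls, 365 for the dependence on diet, and Cyp7a1 turned to -0.35. The main fit did not take the numbers as pairs.

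Centring on array medians turned the differences of these genes, most of them bright (Tnfrsf10b, Epcam and Cd3e lay under background): Saa4 to -0.235, Crp -0.0826, Tnfrsf10b -0.1, Cyp2d9 -1.34, Cyp2c50 -0.641, Hmgcs1 -0.181, C6 -0.313, Ctsl -0.4, Alb -1.69, Hnf4a -0.226, Cyp3a11 -1.56, Cyp2e1 -1.66, Cyp7a1 -0.329, Epcam -0.0175, Cd3e -0.136 and Actb -1.28. Not all were small: in the main fit Saa4, Hmgcs1 and C6 were called higher in liver by 1.03, 1.09 and 1.24. Cyp2d9 and Cyp2c50 were called higher by limma in the main fit (adjusted p 0.0169 and 0.0198). After this centring limma called them lower (adjusted p 0.00122 and 0.0218). Centring on hepatocyte genes turned Ttr to 0.105, and control probe sets in the normalization turned Krt7 to -0.194. Leaving out 1 array gave ranges through 0 for Cyp3a11 (-0.034 to 0.305), Cyp7a1 (-0.474 to 0.784), Krt7 (-0.00254 to 0.218), Myc (-2.46 to 0.424), Mt2 (-1.9 to 0.0772) and Actb (-0.0228 to 0.472). Among 3957 probe sets above background on all arrays, low signal did not limit a fold. A limit at the top of the scale, where Alb lay in liver, was not tested. Under background in both tissues lay 2013 of the higher and 1925 of the lower calls.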

Other observations

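Single preparations differed in some genes known to respond to feeding, time of day or hormones. Whether this spread had a part in the differences between the tissues was not tested. Hepatocyte replicate 3 was low in lipogenic genes. Fasn, fatty acid synthase, read 14.28, 14.80 and 11.55 in hepatocytes and 13.44, 13.82, 13.94 and 13.70 in liver. Scd1, the stearoyl-CoA desaturase, read 18.88, 18.93 and 16.82 against 18.31, 18.52, 18.17 and 17.59.

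The clock output genes spread within each tissue as well. Dbp, a clock-driven transcription factor, read 8.43, 11.41 and 16.04 in hepatocytes and 9.99, 12.64, 10.67 and 13.73 in liver. Arntl, encoding the clock activator BMAL1, ran in the opposite order in hepatocytes at 10.88, 9.71 and 5.75, with 10.31, 10.20, 9.40 and 8.26 in liver. The labels used here give no time of sampling.

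Some genes known to respond to growth hormone, picked here after their values were seen, each had high and low arrays in both tissues. Cish, a feedback inhibitor of cytokine receptors, read 5.02, 10.25 and 4.83 in hepatocytes and 9.88, 4.92, 9.13 and 6.28 in liver. Bcl6, a repressor known to be lowered by growth hormone, read 11.14, 7.80 and 10.41 against 8.72, 12.26, 7.20 and 6.78. Onecut1, a hepatocyte factor that growth hormone raises, read 9.80, 14 and 9.67 against 14.07, 9.59, 14.76 and 14.25. The arrays did not divide alike, since liver replicate 4 was low for Cish and high for Onecut1.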
